A study of Mus musculus with 9 samples.

Results

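Excitation-contraction coupling genes, which serve the step that turns a muscle membrane potential into a release of stored calcium, were followed as a set of 10 in RNA sequencing counts from primary mouse myoblasts. They were chosen by symbol, and all 10 of 10 were found among the 55536 gene rows: the ryanodine receptors Ryr1 and Ryr3, the voltage sensor subunits Cacna1s, Cacnb1 and Cacna2d1, the triad proteins Stac3, Jph2 and Jsrp1, and the SERCA calcium pumps Atp2a1 and Atp2a2. The series asked what the drug oxybutynin, an antagonist of muscarinic acetylcholine receptors, does in myoblasts whose mitochondrial complex III is defective. All cells carried floxed Uqcrfs1 alleles, the gene of the Rieske iron-sulphur subunit of complex III, and an adenovirus was used in every group. The group called knockout oxybutynin here (labelled KO_OXY, uqcrfs1 -/-, 3 libraries) received Cre virus and 7.5 µM oxybutynin. The group called knockout vehicle (KO_DMSO, uqcrfs1 -/-, 3 libraries) received Cre virus and DMSO, and the group called floxed vehicle (GFP_DMSO, uqcrfs1 +/+, 3 libraries) received virus for green fluorescent protein and DMSO. Cells grew in Ham's F-10 medium with 20% horse serum and were seeded 72 h after the virus, and drug or DMSO was added 24 h later and left for 5 days. Genotype and the type of virus cannot be told apart, and no floxed cells with oxybutynin were analysed here. The labels do not state whether the libraries of a group are separate cultures, so p-values here describe the spread among libraries, and that spread may be technical.

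In a skeletal muscle fibre the voltage sensor in the T-tubule membrane, the channel CaV1.1, pulls open the ryanodine receptor RyR1 in the facing sarcoplasmic reticulum, and calcium flows out to start contraction. SERCA pumps then return the calcium to the store, and tethering proteins hold the membranes together at a junction called the triad. Dividing myoblasts have no triads yet, and most of these genes are turned up as the cells leave the cell cycle, fuse and form myotubes.

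The 3 voltage sensor genes encode parts of 1 channel and, as counted, did not change in the same direction. The stretches just before their start sites are therefore shown, together with that of Jph2, a triad gene that rose as counted. The stretches come from RefSeq (GRCm38.p6), read 5′ to 3′ on the strand of the gene, and lie within 250 bases before the RefSeq start, without bases that an annotated exon of the gene covers. Capitals mark E-boxes (CANNTG, searched on both strands), the kind of site that MyoD family factors bind.
Cacna1s (chr1:136052561-136052749, plus strand): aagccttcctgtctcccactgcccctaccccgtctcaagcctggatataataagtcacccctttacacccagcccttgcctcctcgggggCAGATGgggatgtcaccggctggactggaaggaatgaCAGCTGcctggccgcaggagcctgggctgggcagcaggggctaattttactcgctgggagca
Cacnb1 (chr11:98022635-98022877, minus strand): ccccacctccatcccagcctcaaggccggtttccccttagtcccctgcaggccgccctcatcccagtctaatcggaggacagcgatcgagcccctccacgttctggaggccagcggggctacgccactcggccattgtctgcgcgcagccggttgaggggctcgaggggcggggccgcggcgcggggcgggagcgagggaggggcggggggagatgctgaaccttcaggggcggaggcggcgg
Cacna2d1 (chr5:15934441-15934690, plus strand): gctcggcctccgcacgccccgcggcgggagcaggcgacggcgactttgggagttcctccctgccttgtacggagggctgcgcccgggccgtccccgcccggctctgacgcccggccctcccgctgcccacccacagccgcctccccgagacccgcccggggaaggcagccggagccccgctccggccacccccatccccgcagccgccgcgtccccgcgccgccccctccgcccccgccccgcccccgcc
Jph2 (chr2:163397994-163398243, minus strand): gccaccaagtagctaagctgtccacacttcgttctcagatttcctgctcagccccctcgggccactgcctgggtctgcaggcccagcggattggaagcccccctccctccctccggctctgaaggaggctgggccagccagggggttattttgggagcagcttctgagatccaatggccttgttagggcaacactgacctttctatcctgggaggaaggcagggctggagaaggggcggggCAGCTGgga
The Cacnb1 stretch lies inside the GENCODE span of the gene, outside its annotated exons. Of the 10 genes, 6 had a window in the RefSeq table. In the full 250-base windows Cacna1s had 2 E-boxes and Jph2 and Atp2a1 had 1 each, and all 3 held the form CAGCTG, which is one case of CANNTG. No E-box lay in the windows of Ryr1, Cacnb1 and Cacna2d1. Among 27025 promoter windows of the same length, 66.1% held CANNTG and 12.7% held CAGCTG. The GC box GGGCGG, on either strand, was found 5 times in Cacnb1, 6 times in Cacna2d1, 2 times in Ryr1, once each in Cacna1s and Jph2 and not in Atp2a1, and 33% of all windows held it. The windows of Cacnb1 and Cacna2d1 held no E-box and several GC boxes, with a GC content of 73.2% and 82.4%. As counted, Cacnb1 rose and Cacna2d1 fell in both knockout groups against floxed vehicle. The fall of Cacna2d1 was not called once the GC trend described below was removed (-0.12 and -0.18). Whether these sites bear on the levels was not tested.

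Library totals ran from 19604971 to 26226949 counts, and the 10 genes together took 0.185% to 0.204% of the counts in knockout oxybutynin, 0.194% to 0.205% in knockout vehicle and 0.167% to 0.176% in floxed vehicle libraries. Uqcrfs1 stood at 2.56 ± 0.437 counts-per-million (CPM) in knockout oxybutynin, 2.45 ± 0.356 CPM in knockout vehicle and 79.6 ± 3.67 CPM in floxed vehicle cells, which checks the genotype labels (log2 fold change of knockout vehicle against floxed vehicle -5.02 ± 0.13, edgeR quasi-likelihood test, adjusted p = 7.54e-14). Errors are SD for CPM and SE for log2 fold changes throughout, with n = 3 libraries a group. Myoblast markers were abundant in every library, with all 7 of 7 listed genes tested and summed levels of 4873 to 5115 CPM in knockout oxybutynin, 3972 to 4965 CPM in knockout vehicle and 4007 to 4144 CPM in floxed vehicle. Of 7 cardiac markers, Myl7 and Nkx2-5 were at 0 in all libraries, and their sum was 1.81 CPM at most. Knockout vehicle replicate 2 stood apart from its group on the first principal component (17.25 against 37.67 and 43.3), while replicates 1 and 3 of that group correlated better with the knockout oxybutynin libraries (mean r of 0.9884 and 0.9927) than with their own group (0.9873 and 0.988).

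Markers of differentiated muscle moved with genotype, and their part in the results below was not tested. Of 13 such markers, 2 rose and 9 fell in knockout vehicle against floxed vehicle cells, in a comparison where 63.3% of all genes were called, 29.9% higher and 33.4% lower. Their summed level was 4139 to 4857 CPM in knockout oxybutynin, 4585 to 4948 CPM in knockout vehicle and 9388 to 10870 CPM in floxed vehicle libraries. Most of that gap was Ttn, the gene of the sarcomere spring titin, at 2334 ± 319 CPM in knockout oxybutynin, 2449 ± 464 CPM in knockout vehicle and 7677 ± 624 CPM in floxed vehicle cells. Its log2 fold change in knockout vehicle against floxed vehicle was -1.65 as counted and -0.30 with the GC trend described below removed. Over the 13 markers the median log2 fold change was -0.52 as counted and -0.79 with that trend removed. Of these markers 2 were then called higher and 11 lower, with 58.6% of all genes called. Myog, the factor that commits myoblasts to differentiate, stood at 136 ± 11.9 CPM in knockout vehicle against 199.8 ± 16.6 CPM in floxed vehicle cells, and embryonic myosin Myh3 at 214 ± 46.2 against 701 ± 73.7 CPM. Skeletal actin Acta1 ran the other way, with 1238 ± 187 CPM in knockout vehicle and 711 ± 43.6 CPM in floxed vehicle cells. In bulk RNA, fewer differentiated cells and less RNA per cell cannot be told apart. Fibroblast markers summed to 22.4 to 25.2 CPM in knockout oxybutynin, 22.3 to 24.4 CPM in knockout vehicle and 6.79 to 7.25 CPM in floxed vehicle libraries, with Lum at 0 in all of them. Cd34 made up most of that sum, at 18.9 ± 0.964 CPM in knockout oxybutynin, 17.6 ± 0.926 CPM in knockout vehicle and 3.58 ± 0.183 CPM in floxed vehicle. Of 4 such markers tested, 3 were called higher and 0 lower in each knockout group against floxed vehicle. Over all genes 29.9% were higher with knockout vehicle and 35.1% with knockout oxybutynin. With the GC trend removed 2 of the 4 were called higher. Thy1 was at 1.74 ± 0.478 CPM in knockout vehicle and 0.451 ± 0.135 CPM in floxed vehicle. Col15a1 was at 0.918 ± 0.292 and 0.504 ± 0.104 CPM in the same groups. Pdgfra was not called (2.23 ± 0.311 CPM in knockout oxybutynin, 2.80 ± 0.533 CPM in knockout vehicle and 2.33 ± 0.147 CPM in floxed vehicle), and Dcn was at most 0.460 CPM in any library.

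The order of the 10 genes by level per length differed between genotypes. Per exonic kilobase (kb), the floxed vehicle cells held most Atp2a2 at 102 ± 1.98 CPM per kb, then Atp2a1 at 73.3 ± 5.43 and Jph2 at 67.9 ± 0.900 CPM per kb, and the libraries of Atp2a1 and Jph2 overlapped. In knockout oxybutynin cells Jph2 led with 121 ± 8.01 CPM per kb, ahead of Atp2a1 at 86.7 ± 3.36 and Atp2a2 at 84.1 ± 3.78 CPM per kb, which overlapped each other. In knockout vehicle cells Jph2 averaged 103 ± 13.9, Atp2a2 96.3 ± 11.1 and Atp2a1 84.1 ± 8.96 CPM per kb, and each overlapped the next. These levels are as counted and carry the GC trend described below. With that trend removed Jph2 was not called against floxed vehicle in either knockout group. The middle of the order also changed. In knockout oxybutynin cells it ran Jsrp1 (30.4 ± 4.15 CPM per kb), Cacnb1 (22.1 ± 0.285), Stac3 (17.8 ± 1.07), Ryr1 (17.0 ± 1.55), Cacna1s (8.17 ± 0.342) and Cacna2d1 (3.18 ± 0.339), with overlap between Stac3 and Ryr1 alone. Knockout vehicle cells had the same order, a narrow gap between Jsrp1 and Cacnb1, and overlaps of Cacnb1 with Stac3 and of Stac3 with Ryr1. In floxed vehicle cells it ran Jsrp1 (19.6 ± 2.24 CPM per kb), Stac3 (18.2 ± 1.12), Ryr1 (11.5 ± 0.873), Cacna1s (11.2 ± 0.605), Cacna2d1 (9.14 ± 0.341) and Cacnb1 (8.74 ± 0.346), so that Cacnb1 stood below Cacna2d1 in floxed vehicle and above it in the knockout groups. There Jsrp1 overlapped Stac3, Ryr1 overlapped Cacna1s and Cacna2d1 overlapped Cacnb1. Ryr3 was the scarcest in every group, at 0.186 ± 0.0104 CPM per kb in knockout oxybutynin, 0.205 ± 0.0229 in knockout vehicle and 0.233 ± 0.0219 in floxed vehicle cells.

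**Figure D1:**
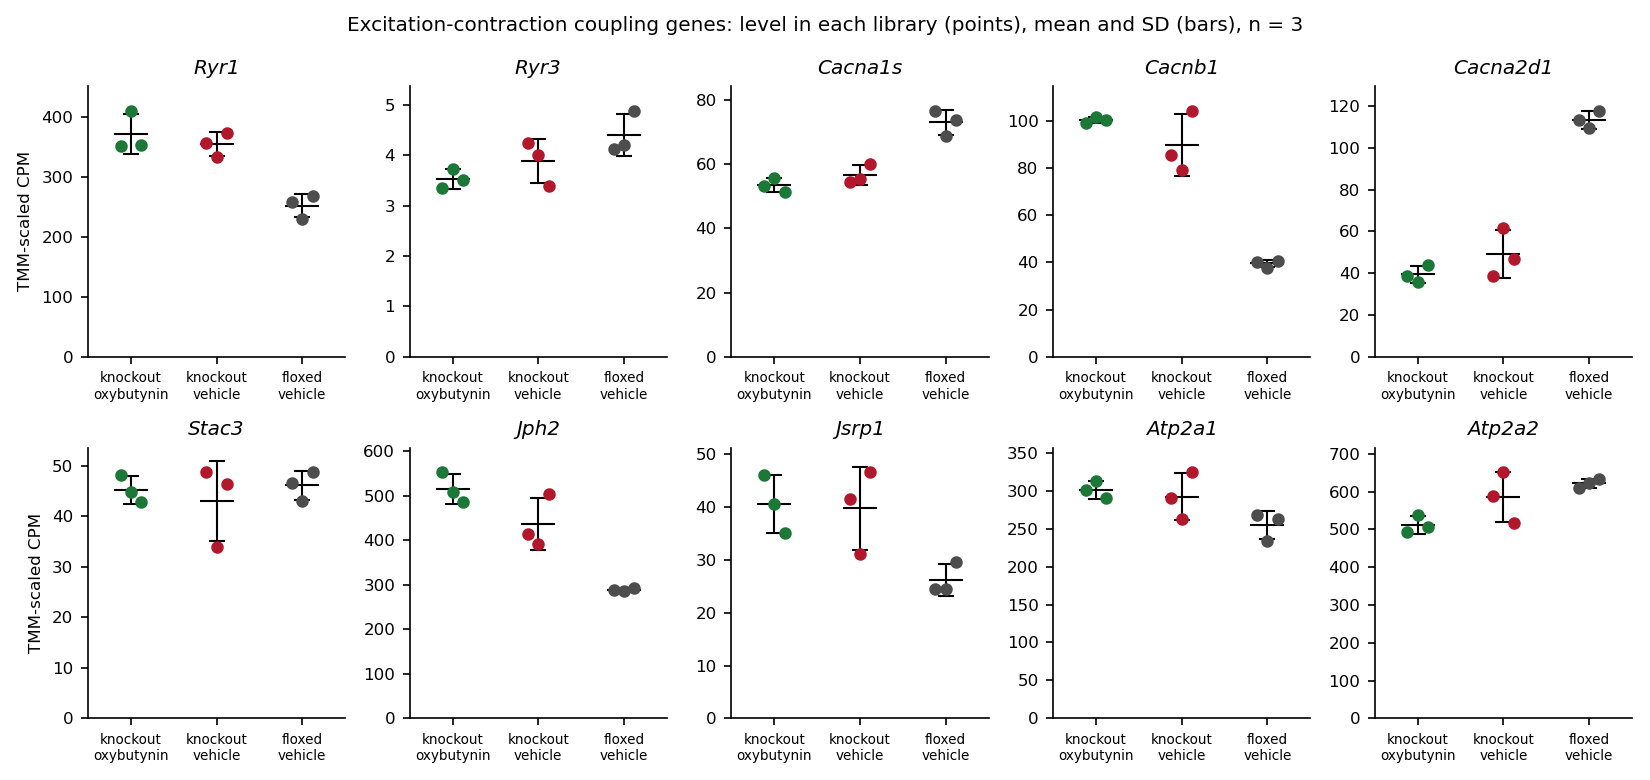
Level of each of the 10 genes in CPM (y axis, from 0) in knockout oxybutynin, knockout vehicle and floxed vehicle libraries (points), with the mean and SD of 3 libraries as bars. Cacnb1 lies at 79.2 to 104 CPM in the knockout libraries of both groups and at 37.8 to 40.7 CPM in floxed vehicle, and Cacna2d1 shows the reverse order, with 35.8 to 61.7 CPM in the knockout libraries and 109 to 118 CPM in floxed vehicle.

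Among the ryanodine receptors, Ryr1 rose with the knockout and Ryr3 did not pass the test. Ryr1 (ENSMUSG00000030592, chromosome 7, 29003344 to 29125179, minus strand, GRCm38) encodes the calcium release channel of skeletal muscle. It stood at 350, 410 and 352 CPM in knockout oxybutynin, 355, 333 and 373 CPM in knockout vehicle, and 258, 230 and 267 CPM in floxed vehicle libraries. All 6 knockout libraries lay above all 3 floxed libraries, and the knockout groups overlapped. The log2 fold change was 0.49 ± 0.087 in knockout vehicle against floxed vehicle (1.41-fold, adjusted p = 0.000101) and 0.56 ± 0.087 in knockout oxybutynin against floxed vehicle (adjusted p = 1.95e-05). The antisense gene Gm26604, which covers 864 of the 21838 exonic bases of Ryr1 on the other strand, had at most 0.251 CPM in any library.

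Ryr3 (ENSMUSG00000057378, chromosome 2, 112631355 to 113217096, minus strand) encodes a receptor of many tissues that is present in developing skeletal muscle and scarce in most adult fibres. It had only 78 to 110 counts a library, or 3.35, 3.74 and 3.50 CPM in knockout oxybutynin, 4.24, 4.02 and 3.40 CPM in knockout vehicle, and 4.14, 4.21 and 4.89 CPM in floxed vehicle. Knockout oxybutynin lay below floxed vehicle without overlap, but the log2 fold change of -0.32 ± 0.16 did not pass the test (adjusted p = 0.0814), nor did -0.19 ± 0.16 for knockout vehicle against floxed vehicle (adjusted p = 0.319). Ryr3 shares 916 of its 18977 exonic bases with Aven on the other strand, which fell in knockout vehicle against floxed vehicle (7.06 ± 0.902 against 12.3 ± 1.33 CPM, adjusted p = 5.8e-05). How the counting treated strand is not stated in the sources used here, so reads from the overlap cannot be assigned to Ryr3 or Aven with certainty. With protein-coding genes only Ryr3 was called lower in knockout oxybutynin against floxed vehicle (-0.37, adjusted p = 0.0382), and with the GC trend described below removed its value was 0.077.

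As a share of both receptors per kb, Ryr3 made up 1.09% ± 0.0466 in knockout oxybutynin, 1.25% ± 0.187 in knockout vehicle and 1.98% ± 0.142 in floxed vehicle cells. The library values were 1.09%, 1.04% and 1.13% in knockout oxybutynin, 1.35%, 1.37% and 1.04% in knockout vehicle, and 1.82%, 2.06% and 2.06% in floxed vehicle. Every knockout library thus had a smaller share than every floxed library. These shares are as counted. With the GC trend described below removed, the log2 fold change was still lower for Ryr3 than for Ryr1, by a narrower gap. The values were then 0.12 and 0.47 in knockout vehicle against floxed vehicle, and 0.077 and 0.42 in knockout oxybutynin against floxed vehicle. An exact two-sided permutation test of 3 libraries against 3, which cannot go below 0.1, gave p = 0.1 for each knockout group against floxed vehicle (0.2 after Benjamini-Hochberg adjustment over the 6 such tests) and p = 0.4 for knockout oxybutynin against knockout vehicle.

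Of the voltage sensor genes, 1 rose and 2 fell with the knockout as counted. Cacna1s (ENSMUSG00000026407, chromosome 1, 136052750 to 136119822, plus strand) encodes the pore and voltage-sensing subunit of CaV1.1. Its level was 53.3, 55.8 and 51.4 CPM in knockout oxybutynin, 54.4, 55.3 and 60.2 CPM in knockout vehicle, and 76.7, 68.9 and 73.7 CPM in floxed vehicle libraries. Both knockout groups lay below the floxed group without overlap. Cacna1s had a log2 fold change of -0.37 ± 0.082 in knockout vehicle against floxed vehicle (1.29-fold lower, adjusted p = 0.000884) and -0.45 ± 0.083 in knockout oxybutynin against floxed vehicle (adjusted p = 0.000108). The antisense gene Gm37759 covers 1309 of its 6550 exonic bases and had at most 0.225 CPM in any library.

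Cacnb1 (ENSMUSG00000020882, chromosome 11, 98001508 to 98023034, minus strand) encodes the beta subunit, which brings the pore subunit to the triad. It showed the largest rise of the 10 genes, with 98.9, 101 and 100.3 CPM in knockout oxybutynin, 85.6, 79.2 and 104 CPM in knockout vehicle, and 40.2, 37.8 and 40.7 CPM in floxed vehicle. Every knockout library lay far above the floxed libraries, and the 2 knockout groups overlapped. Its log2 fold change was 1.18 ± 0.096 in knockout vehicle against floxed vehicle (2.27-fold, adjusted p = 1.18e-08) and 1.34 ± 0.097 in knockout oxybutynin against floxed vehicle (2.53-fold, adjusted p = 1.52e-09).

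Cacna2d1 (ENSMUSG00000040118, chromosome 5, 15934691 to 16374511, plus strand) encodes the extracellular alpha2delta subunit, the protein that gabapentin binds. It fell to 38.6, 35.8 and 44.1 CPM in knockout oxybutynin and 38.8, 61.7 and 46.8 CPM in knockout vehicle, against 113, 109 and 118 CPM in floxed vehicle. The groups of the 2 genotypes did not overlap, and the highest knockout library was knockout vehicle replicate 2. Cacna2d1 had a log2 fold change of -1.21 ± 0.128 in knockout vehicle against floxed vehicle (2.31-fold lower, adjusted p = 2.76e-07) and -1.52 ± 0.129 in knockout oxybutynin against floxed vehicle (2.88-fold lower, adjusted p = 1.15e-08), calls that were lost once the GC trend described below was removed (-0.12 and -0.18).

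Among the triad proteins, Jph2 and Jsrp1 rose and Stac3 did not pass the test, all as counted. Jph2 (ENSMUSG00000017817, chromosome 2, 163336242 to 163397993, minus strand) encodes junctophilin 2, which spans the gap between T-tubule and sarcoplasmic reticulum. It had 553, 507 and 486 CPM in knockout oxybutynin, 414, 392 and 503 CPM in knockout vehicle, and 287, 286 and 293 CPM in floxed vehicle. The floxed libraries lay close together and below every knockout library. The log2 fold change was 0.59 ± 0.092 in knockout vehicle against floxed vehicle (1.51-fold, adjusted p = 2.48e-05) and 0.83 ± 0.092 in knockout oxybutynin against floxed vehicle (1.78-fold, adjusted p = 3.46e-07), calls that were likewise lost with the GC trend removed (0.093 and 0.12).

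Jsrp1 (ENSMUSG00000020216, chromosome 10, 80808496 to 80813498, minus strand) encodes JP-45, a membrane protein of the junctional reticulum that binds CaV1.1 and calsequestrin. Its level was 46.1, 40.6 and 35.0 CPM in knockout oxybutynin, 41.6, 31.2 and 46.6 CPM in knockout vehicle, and 24.4, 24.5 and 29.6 CPM in floxed vehicle. The genotypes did not overlap, though knockout vehicle replicate 2 came close to the highest floxed library. The log2 fold change was 0.60 ± 0.137 in knockout vehicle against floxed vehicle (1.52-fold, adjusted p = 0.000993) and 0.63 ± 0.137 in knockout oxybutynin against floxed vehicle (adjusted p = 0.000525), and with the GC trend removed these came to 0.19 and -0.039, neither called.

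Stac3 (ENSMUSG00000040287, chromosome 10, 127501686 to 127508823, plus strand) encodes an adaptor that CaV1.1 needs to reach the membrane and to couple to RyR1. It had 48.2, 44.8 and 42.8 CPM in knockout oxybutynin, 48.8, 33.9 and 46.4 CPM in knockout vehicle, and 46.6, 43.1 and 48.8 CPM in floxed vehicle. The groups overlapped, with knockout vehicle replicate 2 lowest. The log2 fold change was -0.10 in knockout vehicle against floxed vehicle, with a 95% interval from -0.34 to 0.14 (adjusted p = 0.453), and -0.029 in knockout oxybutynin against floxed vehicle, with an interval from -0.27 to 0.21 (adjusted p = 0.83). With the GC trend removed Stac3 was called lower in both comparisons (-0.49, adjusted p = 8.74e-05, and -0.58, adjusted p = 1.39e-05).

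The SERCA pumps had small fold changes, called in knockout oxybutynin against floxed vehicle and not in knockout vehicle against floxed vehicle. The difference between the knockout groups, below, did not pass the test for either pump. Atp2a1 (ENSMUSG00000030730, chromosome 7, 126445858 to 126463108, minus strand), the pump of fast fibres, stood at 301, 313 and 290 CPM in knockout oxybutynin, 290, 262 and 325 CPM in knockout vehicle, and 268, 233 and 263 CPM in floxed vehicle. Atp2a2 (ENSMUSG00000029467, chromosome 5, 122453513 to 122502225, minus strand), the pump of slow fibres, heart and, in another splice form, most other cells, stood at 492, 537 and 506 CPM in knockout oxybutynin, 589, 652 and 517 CPM in knockout vehicle, and 610, 621 and 634 CPM in floxed vehicle. Knockout oxybutynin lay above floxed vehicle for Atp2a1 and below it for Atp2a2, without overlap, while knockout vehicle overlapped floxed vehicle for both genes.

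In knockout oxybutynin against floxed vehicle the log2 fold change of Atp2a1 was 0.24 ± 0.088 (1.18-fold, adjusted p = 0.0208), which turned to -0.36 once the GC trend described below was removed (adjusted p = 9.93e-05). Its call as counted was lost when floxed vehicle replicate 2 (0.18, adjusted p = 0.13) or knockout oxybutynin replicate 2 (0.22, adjusted p = 0.0686) was left out, and with protein-coding genes only (0.20, adjusted p = 0.0522). Atp2a2 fell by 0.28 ± 0.086 on the log2 scale (1.22-fold lower, adjusted p = 0.0073). In knockout vehicle against floxed vehicle neither passed the test (Atp2a1 0.20, adjusted p = 0.0591, Atp2a2 -0.087, adjusted p = 0.39). Atp2a1 was called higher there by DESeq2 (adjusted p = 0.0398, with 61.6% of all genes called), with RLE scaling (0.0431), library totals (0.0237), no filter (0.0151) or only the 2 groups compared (0.0476), and when knockout vehicle replicate 1 (adjusted p = 0.0476) or replicate 2 (adjusted p = 0.00277) was left out. Under those settings 34.8% to 68.2% of all genes were called. With the GC trend removed Atp2a1 was called lower in the same comparison (-0.24, adjusted p = 0.00356), with 58.6% of all genes called. Atp2a1 shares 763 of its 3477 exonic bases with Rabep2 on the other strand, which had 14.4 to 17.3 CPM in knockout oxybutynin, 11.3 to 15.5 CPM in knockout vehicle and 10.0 to 11.1 CPM in floxed vehicle libraries.

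Atp2a1 made up 50.8% ± 0.862 of both pumps per kb in knockout oxybutynin, 46.7% ± 5.52 in knockout vehicle and 41.7% ± 1.93 in floxed vehicle cells. The libraries gave 51.7%, 50.5% and 50.05% in knockout oxybutynin, 46.3%, 41.3% and 52.4% in knockout vehicle, and 43.5%, 39.6% and 42.1% in floxed vehicle. Knockout oxybutynin lay above floxed vehicle in every library, and knockout vehicle overlapped both, but this direction turned with the GC trend removed, where the log2 fold change was lower for Atp2a1 than for Atp2a2 (-0.36 and -0.17 in knockout oxybutynin against floxed vehicle, and -0.24 and -0.065 in knockout vehicle against floxed vehicle). The exact two-sided permutation test gave p = 0.1 for knockout oxybutynin against floxed vehicle, the smallest it allows, 0.3 for knockout vehicle against floxed vehicle and 0.4 between the knockout groups (0.2, 0.4 and 0.4 after adjustment). Atp2a3, the third SERCA gene and one of the other pathway genes listed, was far below both at 3.76 ± 0.350 CPM per kb in knockout oxybutynin, 2.91 ± 0.536 in knockout vehicle and 0.365 ± 0.0517 in floxed vehicle cells. Its log2 fold change of 2.997 ± 0.17 in knockout vehicle against floxed vehicle was larger than that of any of the 10 genes (adjusted p = 1.78e-10).

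**Figure D2:**
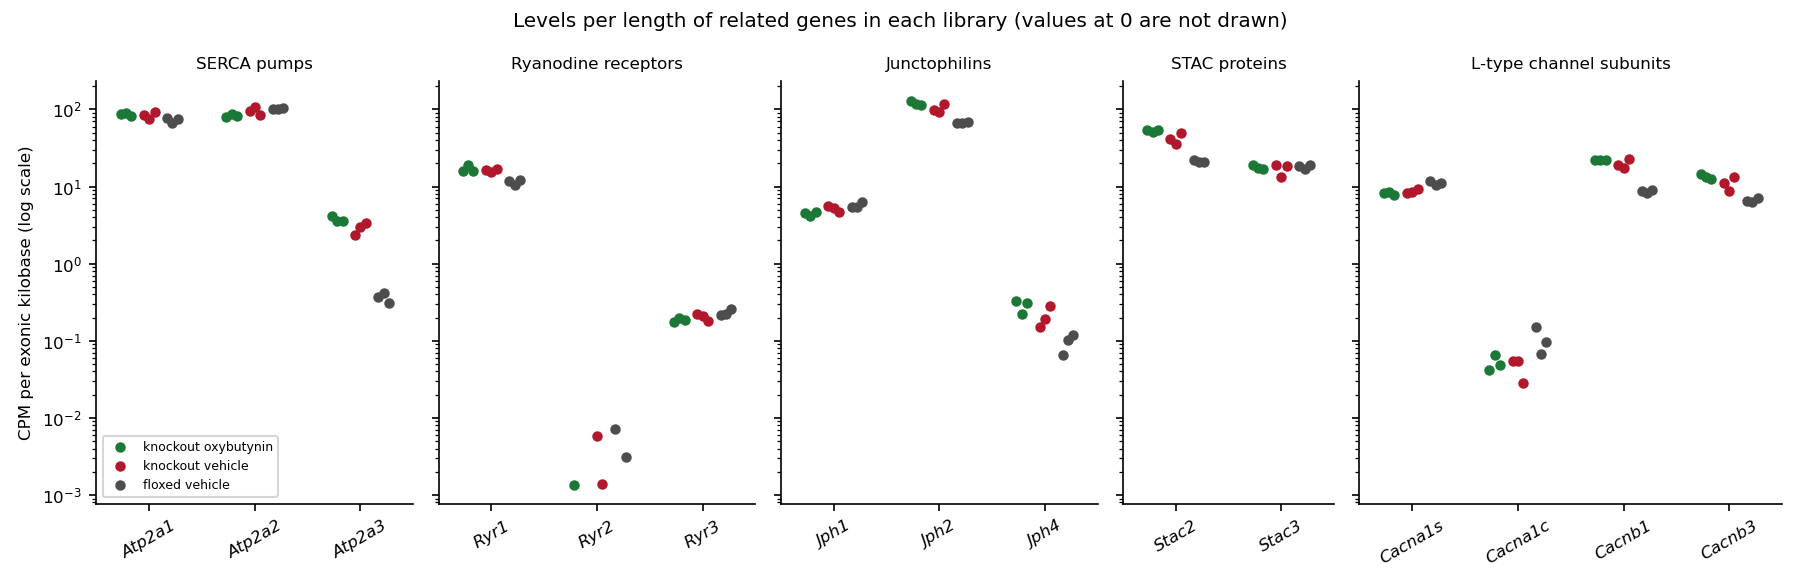
Level per exonic kilobase (y axis, log scale) of related genes in each library, with knockout oxybutynin, knockout vehicle and floxed vehicle points from left to right for each gene. Ryr3 lies far below Ryr1 in every library, Jph2 far above Jph1 and Jph4, and Atp2a1 and Atp2a2 lie close together. Values at 0 are not drawn.

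Counted over the 10 genes, 4 rose (Ryr1, Cacnb1, Jph2, Jsrp1), 2 fell (Cacna1s, Cacna2d1) and 4 were not called in knockout vehicle against floxed vehicle. Of all 15720 genes tested, 63.3% were called in that comparison, 29.9% higher and 33.4% lower, so a share of 6 in 10 is no result about these genes. At an unadjusted p under 0.05 there were 7 of the 10 genes and 66.7% of all genes, and ranges were separate for 6 of the 10 genes and for 66.7% of all genes. The median log2 fold change was 0.056 over the 10 genes and -0.011 over all genes. In knockout oxybutynin against floxed vehicle 5 rose as counted (Ryr1, Cacnb1, Jph2, Jsrp1 and Atp2a1, the last of which turned to lower with the GC trend removed) and 3 fell (Cacna1s, Cacna2d1, Atp2a2), against 71.9% of all genes called, 35.1% higher and 36.9% lower. An unadjusted p under 0.05 was seen for 8 of the 10 genes and 73.9% of all genes. Ranges were separate for 9 of the 10 genes and 78.9% of all genes, and the median log2 fold change was 0.11 over the 10 genes and 0.002 over all genes. The 2 comparisons share the floxed libraries. With a change of at least 1.5-fold also required, 3 of the 10 genes were higher and 1 lower in both comparisons, against 41.1% of all genes in knockout vehicle against floxed vehicle and 51.2% in knockout oxybutynin against floxed vehicle.

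The directions went together with the base composition of the transcripts. Cacna2d1, the largest fall, had the lowest GC content of the 10 genes at 40.7%, and the genes that rose with the knockout had 58.0% (Ryr1), 59.7% (Cacnb1), 61.8% (Jph2) and 62.0% (Jsrp1), against a median of 49.1% over the genes tested. Over the 10 genes Spearman's rho between GC content and log2 fold change was 0.879 in knockout vehicle against floxed vehicle and 0.903 in knockout oxybutynin against floxed vehicle. Across 15714 genes, which are not independent replicates and share the same libraries, it was 0.562 and 0.639. Between the knockout groups, which share genotype and virus, it was 0.782 over the 10 genes and 0.576 across the 15714. The trend was thus not confined to comparisons between genotypes. The fold changes were therefore computed again with the trend of each library along GC content and exonic length taken out, blind to group. Wherever the GC trend or GC adjustment is named alone, the length trend was removed with it. This step also takes out any real difference that runs with GC content or length.

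After that step 3 genes kept direction and call in both comparisons with floxed vehicle. Ryr1 had a log2 fold change of 0.47 ± 0.069 in knockout vehicle against floxed vehicle (adjusted p = 2.22e-05), Cacnb1 0.68 ± 0.067 (adjusted p = 2.13e-07) and Cacna1s -0.68 ± 0.066 (adjusted p = 1.79e-07). The rise of Cacnb1 was thus smaller than as counted, and the fall of Cacna1s larger. Stac3, not called as counted, was lower by this measure (-0.49 ± 0.084, adjusted p = 8.74e-05), and so was Atp2a1 (-0.24 ± 0.062, adjusted p = 0.00356). In knockout oxybutynin against floxed vehicle Stac3 was also called lower (-0.58 ± 0.084, adjusted p = 1.39e-05). Atp2a2 kept its lower call in that comparison (-0.17 ± 0.059, adjusted p = 0.018) and was again not called in knockout vehicle against floxed vehicle.

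Other calls were lost. Cacna2d1 came to -0.12 ± 0.079 (adjusted p = 0.191), Jph2 to 0.093 ± 0.059 (adjusted p = 0.184) and Jsrp1 to 0.19 ± 0.088 (adjusted p = 0.0799) in knockout vehicle against floxed vehicle. By this measure 2 of the 10 genes rose and 3 fell in that comparison, with 58.6% of all genes called, and 2 rose and 4 fell in knockout oxybutynin against floxed vehicle, with 61.4% of all genes called. Whether GC content, length or genotype sets the values of Cacna2d1, Jph2 and Jsrp1 was not tested.

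**Figure D3:**
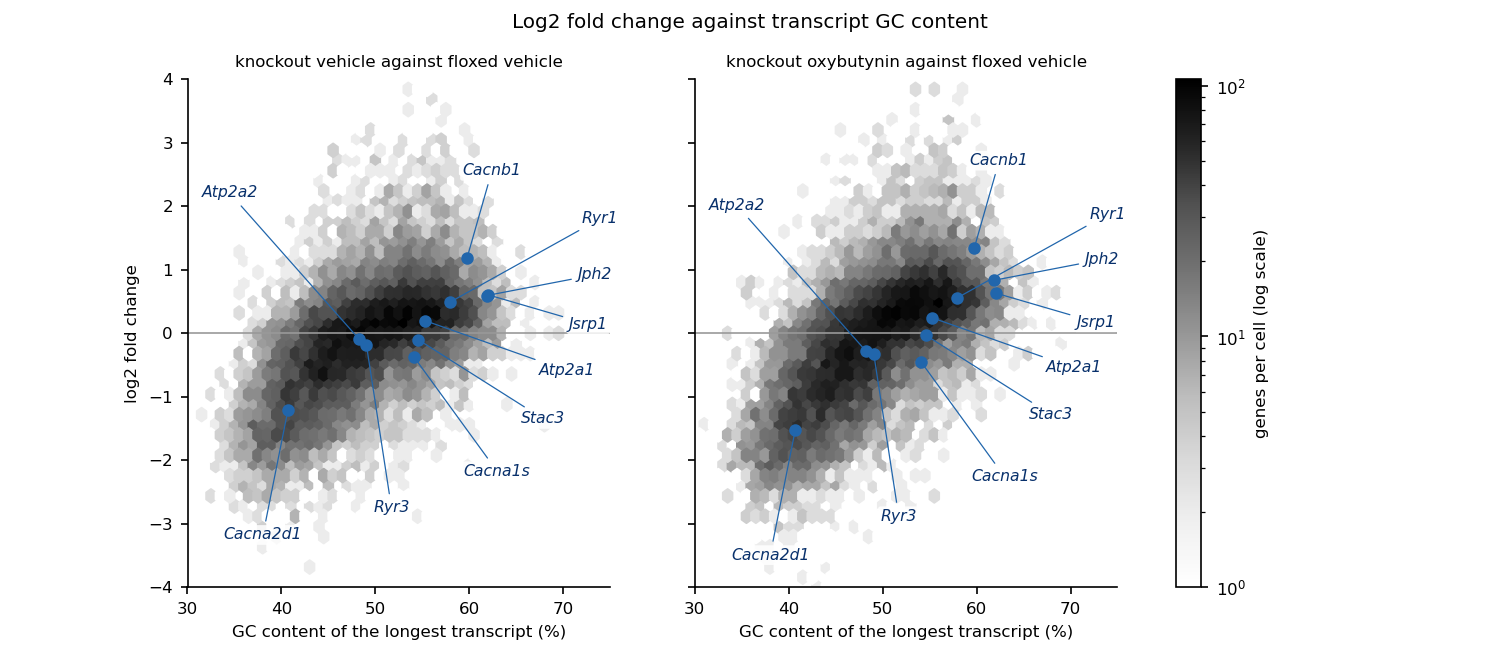
Log2 fold change (y axis) against GC content of the longest transcript in percent (x axis) for knockout vehicle and knockout oxybutynin against floxed vehicle, with all genes as grey cells and the 10 genes as blue points. The 10 points follow the grey cloud from Cacna2d1 at 40.7% GC and -1.21 to Cacnb1 at 59.7% GC and 1.18 in knockout vehicle against floxed vehicle. Cacna1s lies at 54.1% GC and -0.37 there.

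**Figure D4:**
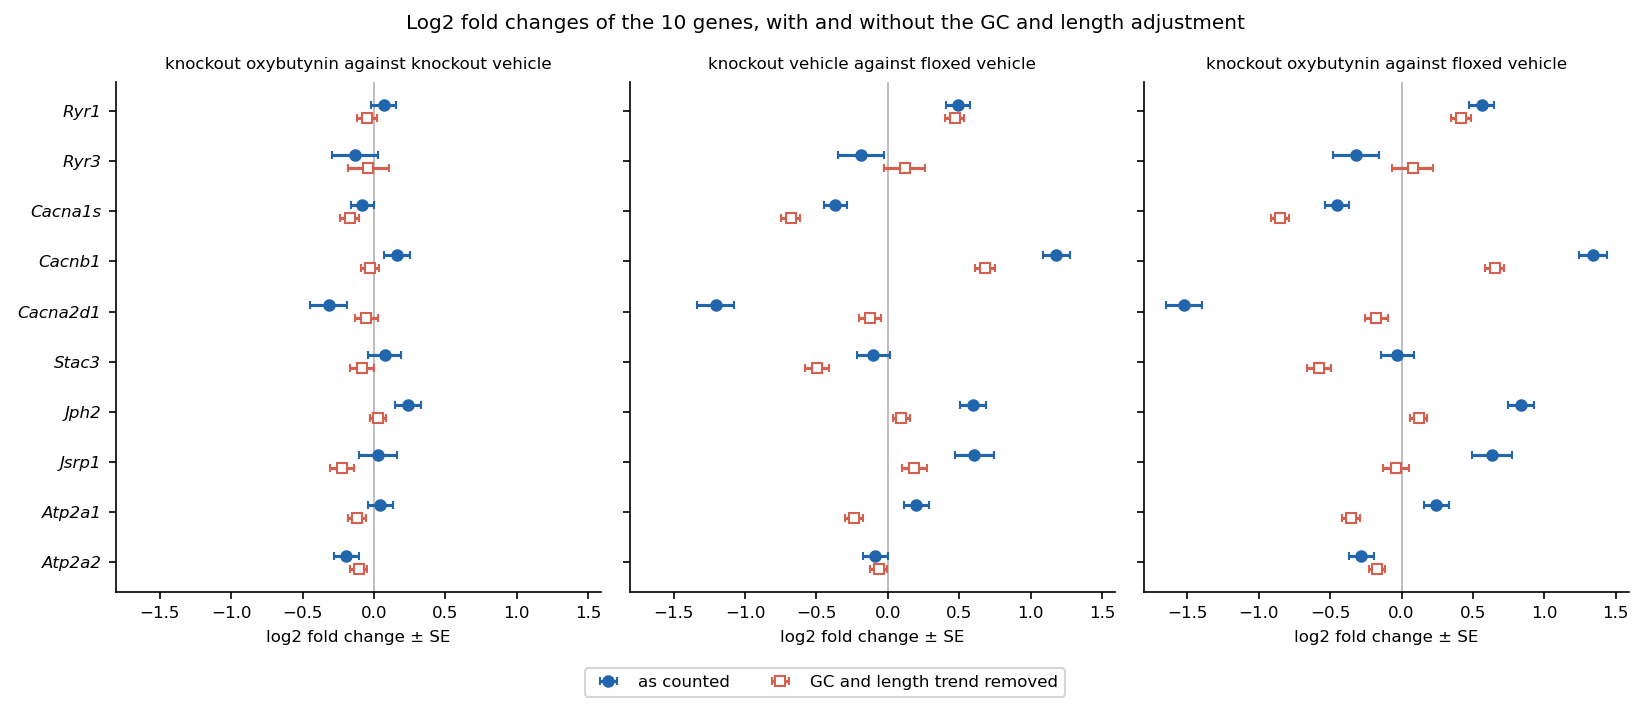
Log2 fold change with SE (x axis) of each gene as counted (filled circles) and after removal of the GC and length trend (open squares), in the 3 comparisons. Ryr1, Cacnb1 and Cacna1s keep their direction in both comparisons with floxed vehicle, Cacna2d1 stands at -1.21 as counted and -0.12 after the removal in knockout vehicle against floxed vehicle, and Atp2a1 at 0.24 as counted and -0.36 after it in knockout oxybutynin against floxed vehicle.

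Between the knockout groups, with oxybutynin against with vehicle, none of the 10 genes was called, and edgeR called 0.0127% of all genes, 2 of 15720, with 0.00636% higher and 0.00636% lower. At an unadjusted p under 0.05 there were 3 of the 10 genes (Jph2, Cacna2d1 and Atp2a2) and 26% of all genes, and ranges were separate for 0 of the 10 genes and 22.1% of all genes. DESeq2 called none of the 10 genes and 7.21% of all genes, and with the GC trend removed edgeR called 0% of all genes. Jph2 had a log2 fold change of 0.24 with a 95% interval from 0.047 to 0.43 (adjusted p = 0.131), Cacna2d1 -0.32 with an interval from -0.59 to -0.046 (adjusted p = 0.144) and Atp2a2 -0.20 with an interval from -0.38 to -0.014 (adjusted p = 0.167). The other 7 genes had log2 fold changes between -0.14 and 0.16. The intervals of these 3 genes leave out 0 before adjustment over 15720 genes, and values that miss the threshold do not show that the drug left a gene as it was. Those intervals are as counted. Once the GC trend was removed, Jph2 came to 0.028 (adjusted p = 0.881), Cacna2d1 to -0.054 (adjusted p = 0.827) and Atp2a2 to -0.11 (adjusted p = 0.456).

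That count rested on knockout vehicle replicate 3. Without it Cacnb1 (0.28, adjusted p = 0.0121) and Jph2 (0.35, adjusted p = 0.0053) were called higher and Atp2a2 (-0.28, adjusted p = 0.0121) lower in knockout oxybutynin against knockout vehicle, with 26% of all genes called. These calls are as counted, and the GC trend was not removed in fits with a library left out. Without knockout vehicle replicate 2 none of the 10 genes was called, with 0.391% of all genes called. With no filter on low counts Cacna2d1 alone was called (-0.32, adjusted p = 0.0436), with 3.65% of all genes.

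The other genes of calcium handling were counted from a list of 79, of which 77 were found and 67 tested. In knockout vehicle against floxed vehicle 26 rose and 19 fell, or 67.2% against 63.3% of all genes. In knockout oxybutynin against floxed vehicle 31 rose and 23 fell, or 80.6% against 71.9%. Between the knockout groups none was called by edgeR and 19 had an unadjusted p under 0.05. The list counts below are for knockout vehicle against floxed vehicle, where 29.9% of all genes were higher and 33.4% lower. After the GC adjustment 27 of the 67 were higher and 20 lower there, with 58.6% of all genes called. No list was tested against these shares.

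Of 10 tested genes for other calcium channel subunits and STAC paralogs, 4 rose and 2 fell in knockout vehicle against floxed vehicle, and 5 and 3 after the GC adjustment. Stac2, a paralog of Stac3, stood at 167 ± 7.03 CPM in knockout oxybutynin, 132 ± 21.2 CPM in knockout vehicle and 66.9 ± 2.19 CPM in floxed vehicle cells (log2 fold change 0.98 ± 0.099 in knockout vehicle against floxed vehicle, adjusted p = 1.59e-07). Cacnb3, a beta subunit of other tissues, rose beside Cacnb1 (0.73 ± 0.12, adjusted p = 5.79e-05), and so did Cacng7 (1.32 ± 0.12, adjusted p = 4.25e-08). Cacnb2, the beta subunit of the heart, fell as counted (-0.84 ± 0.16, adjusted p = 0.000211) but was called higher after the GC adjustment (0.46, adjusted p = 0.011). That adjustment left Stac2 at 0.48, Cacnb3 at 0.21 and Cacng7 at 0.85, all still called. Cacng1, the gamma subunit of the skeletal channel and the most abundant gene of the list that was called in no comparison, had 0.068 ± 0.11 as counted (adjusted p = 0.6) and -0.28 after the adjustment (adjusted p = 0.00517).

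Of 11 tested genes of triad structure and T-tubule shaping, 6 rose and 1 fell as counted, and 5 rose and 2 fell after the GC adjustment. Those higher as counted included Dnm2, the membrane-cutting dynamin (0.63 ± 0.077, adjusted p = 1.76e-06), Dysf, the membrane repair protein dysferlin (0.47 ± 0.089, adjusted p = 0.000199), Tmem38a, the potassium channel TRIC-A of the reticulum (0.44 ± 0.080, adjusted p = 0.000131), and Speg, a triad kinase (0.37 ± 0.098, adjusted p = 0.00346). After the GC adjustment their log2 fold changes were 0.12 to 0.18, and the calls of Tmem38a (adjusted p = 0.118) and Speg (adjusted p = 0.0916) were lost. Tmem38b, the related channel TRIC-B, had -0.046 ± 0.11 as counted (adjusted p = 0.729) and 0.71 after the adjustment (adjusted p = 3.12e-05).

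Partners of the ryanodine receptor and proteins of the calcium store split, with 3 higher and 6 lower of 13 tested, and 3 and 5 after the GC adjustment. S100a1, a calcium-binding protein that opens the receptor, rose to 26.2 ± 1.28 CPM in knockout oxybutynin and 22.4 ± 2.96 CPM in knockout vehicle, against 3.73 ± 0.443 CPM in floxed vehicle (2.59 ± 0.13, adjusted p = 5.28e-11). Trdn, which anchors calsequestrin to the receptor, fell to 12.1 ± 3.34 CPM in knockout vehicle, against 33.6 ± 3.58 CPM in floxed vehicle (-1.47 ± 0.16, adjusted p = 3.72e-07), but came to -0.087 after the GC adjustment, not called. In knockout oxybutynin against floxed vehicle Trdn was still called lower after the adjustment (-0.47, adjusted p = 0.0021). Casq2, the calsequestrin of heart and slow muscle, fell to 100 ± 8.43 CPM in knockout vehicle, against 163 ± 10.0 CPM in floxed vehicle (-0.70 ± 0.083, adjusted p = 1.05e-06). Hrc, a calcium-binding protein of the reticulum lumen, fell by 1.09 ± 0.12 on the log2 scale (adjusted p = 3.17e-07). Casq2 and Hrc kept that direction after the GC adjustment (-0.62 and -1.41). Calm3, a calmodulin gene, had -0.032 ± 0.094 as counted (adjusted p = 0.777) and -0.51 after the adjustment (adjusted p = 1.51e-06).

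Among the SERCA regulators, Pln (phospholamban, an inhibitor of SERCA2) rose but was scarce, at 1.88 ± 0.685 CPM in knockout oxybutynin, 2.35 ± 0.705 CPM in knockout vehicle and 0.285 ± 0.163 CPM in floxed vehicle (2.99 ± 0.43 in knockout vehicle against floxed vehicle, adjusted p = 8.55e-06). Sln (sarcolipin, an inhibitor of SERCA pumps) fell to 3.04 ± 0.171 CPM in knockout vehicle, against 4.57 ± 0.867 CPM in floxed vehicle (-0.58 ± 0.18, adjusted p = 0.00948). Mrln (myoregulin, an inhibitor of SERCA1) also fell (-1.03 ± 0.39, adjusted p = 0.0264). After the GC adjustment Sln came to -0.38 (adjusted p = 0.0654) and Mrln to -0.56 (adjusted p = 0.212) in knockout vehicle against floxed vehicle, while Sln kept its call in knockout oxybutynin against floxed vehicle (-0.51, adjusted p = 0.0183).

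Store-operated entry and inositol trisphosphate receptors had 5 genes higher and 1 lower of 9 tested, and 6 and 3 after the GC adjustment. Stim1, the calcium sensor of the store, rose to 66.9 ± 3.36 CPM in knockout vehicle, against 41.9 ± 1.16 CPM in floxed vehicle (0.67 ± 0.082, adjusted p = 1.64e-06). Its paralog Stim2 fell to 51.0 ± 5.79 CPM, against 84.2 ± 1.15 CPM in floxed vehicle (-0.72 ± 0.090, adjusted p = 1.87e-06). Saraf, a brake on store-operated entry, rose (0.78 ± 0.082, adjusted p = 2.79e-07), as did the receptor Itpr3 (0.73 ± 0.095, adjusted p = 3.39e-06). All 4 kept their direction after the GC adjustment, at 0.46, -0.66, 0.57 and 0.39. Itpr1, the most abundant gene of the list called in no comparison, had 0.23 ± 0.098 as counted (adjusted p = 0.0508) and 0.48 after the adjustment (adjusted p = 2.46e-05).

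For calcium extrusion and buffering, 2 rose and 3 fell of 6 tested, and 3 rose and 2 fell after the GC adjustment. Atp2b1, the plasma membrane calcium pump, fell to 135 ± 4.65 CPM in knockout oxybutynin and 160 ± 17.4 CPM in knockout vehicle, against 578 ± 15.6 CPM in floxed vehicle (-1.85 ± 0.086, adjusted p = 2.04e-11, and -0.91 after the GC adjustment). Slc8a1, the sodium-calcium exchanger, fell as counted (-1.10 ± 0.082, adjusted p = 4.2e-09) but was called higher after the adjustment (0.21, adjusted p = 0.0353). Slc8b1, the mitochondrial sodium-calcium exchanger, rose (0.84 ± 0.11, adjusted p = 5.21e-06, and 0.37 after the adjustment), as did the scarce buffer protein gene Pvalb (1.35 ± 0.34, adjusted p = 0.0024, 1.42 CPM in knockout vehicle and 0.555 CPM in floxed vehicle). Of 8 genes for mitochondrial calcium uptake, 2 rose and 3 fell, with the same numbers after the GC adjustment. Mcub, a subunit that dampens the mitochondrial calcium uniporter, rose (1.14 ± 0.19, adjusted p = 6.22e-05), while Mcur1, a regulator of the uniporter, fell (-0.30 ± 0.10, adjusted p = 0.0179). Micu3 fell as counted (-1.47 ± 0.19, adjusted p = 4.05e-06) and came to -0.098 after the GC adjustment, and Letm1 had 0.001 ± 0.081 as counted (adjusted p = 0.994) and -0.17 after it (adjusted p = 0.0439).

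Of 6 genes of sarcolemmal excitability, 2 rose and 1 fell as counted, and 1 rose and 2 fell after the GC adjustment. Scn4a, the sodium channel of muscle, rose (0.46 ± 0.12, adjusted p = 0.00246), and the potassium channel gene Kcnj2 fell as counted (-0.84 ± 0.20, adjusted p = 0.00137), at 0.14 and -0.023 after the GC adjustment, neither called. Kcnj12, another potassium channel gene, had -0.38 ± 0.23 as counted (adjusted p = 0.155) and -0.83 after the adjustment (adjusted p = 0.00232).

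**Figure D5:**
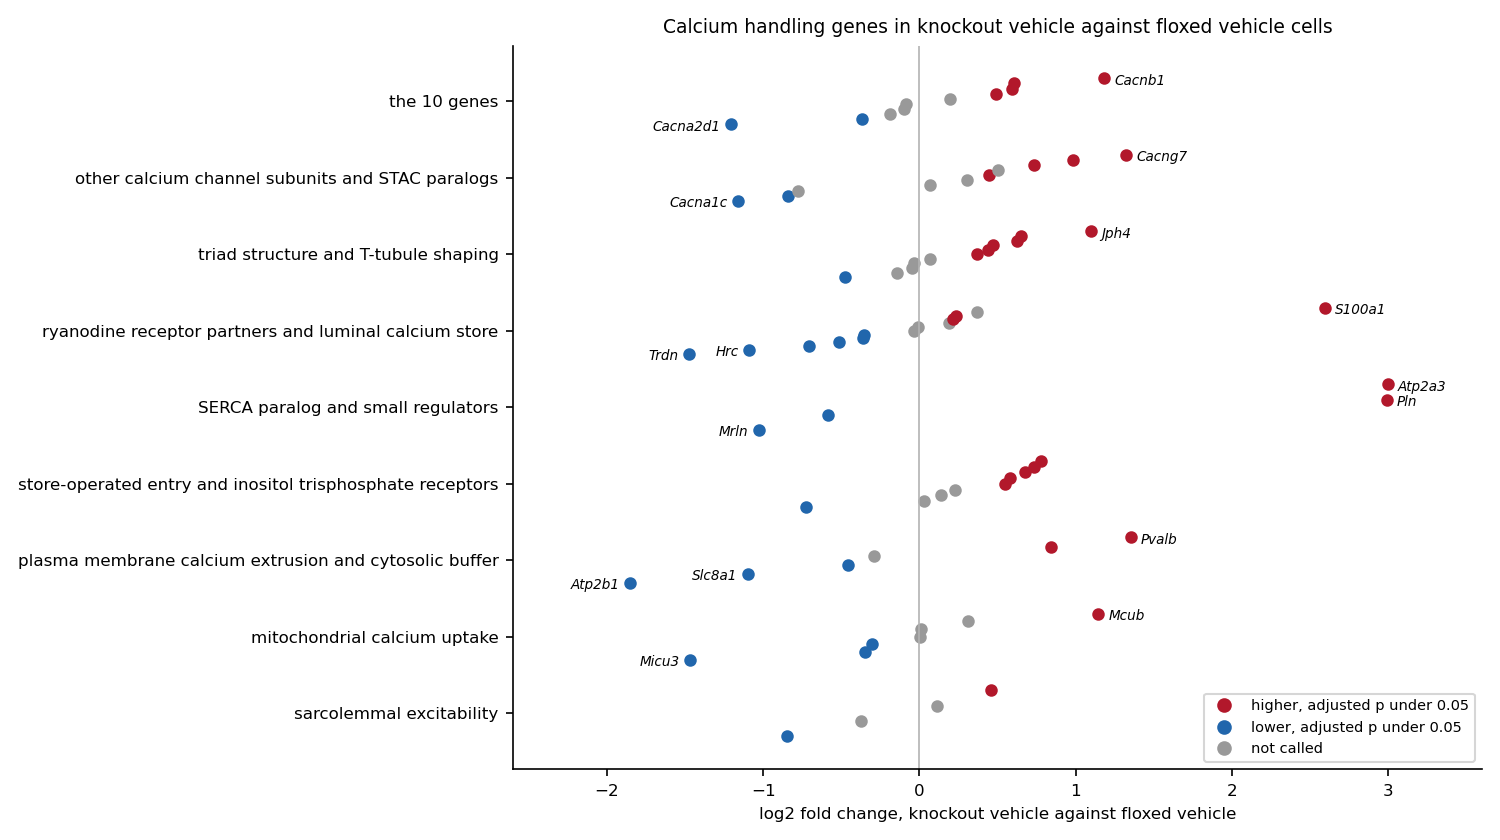
Log2 fold change in knockout vehicle against floxed vehicle (x axis) of the tested genes, by list (rows), without a few genes that are not reported here, with higher calls in red, lower calls in blue and genes not called in grey. The 10 genes span -1.21 to 1.18, and Atp2a3 (2.997), Pln (2.99) and S100a1 (2.59) lie farthest out on the higher side and Atp2b1 (-1.85) on the lower side.

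Over the 9 libraries, which differ mostly by genotype, the 10 genes fell into patterns that other genes shared. Among the 8758 genes that averaged 10 CPM or more, the profile of Cacnb1 was most like that of H19 (Pearson r = 0.998 on log2 CPM), that of Jph2 most like Phgdh (0.999), that of Cacna2d1 most like Washc4 (0.998), that of Ryr1 most like Dag1 (0.990) and that of Jsrp1 most like Prrx2 (0.995). Cacna1s was nearest to Fndc1 (0.977), Atp2a2 to Dcbld2 (0.990), Atp2a1 to Zfp408 (0.971), Ryr3 to Dnmt3a (0.966) and Stac3 to Myl6b (0.963). Among the 10 genes themselves, Cacnb1 and Jph2 had r = 0.972, Cacnb1 and Cacna2d1 -0.964, and Cacnb1 and Cacna1s -0.907, while Stac3 lay between -0.354 and 0.322 with all others. These are descriptions over libraries that share the genotype difference, with no test.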

How the data were processed

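RNA was sequenced from primary mouse myoblasts in 9 libraries, made from 2 µg of Trizol RNA with a directional NEBNext kit, per the labels. The values the authors deposited are whole-number gene counts with no normalization. The submitters' processing notes name Trim Galore (0.6.0), cutadapt, FastQC, STAR (2.7.0e), DESeq2 (1.26.0), GRCm38 and mm10. Which program counted, how it treated strand and which annotation it read are not stated there. Coordinates, exon lengths and GC content came from GENCODE M21 (GRCm38), and start site sequences from RefSeq.

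Here the whole table was tested with edgeR 4.0.16 in R 4.3.3: filterByExpr on 3 groups (15720 genes), TMM, 1 mean per group over all 9 libraries (6 residual degrees of freedom), glmQLFTest, and Benjamini-Hochberg adjustment over all tested genes, called under 0.05. CPM used TMM-scaled library sizes. Paralog shares were compared by exact permutation tests. The fit was also run on simulated counts with 200 changed genes, the same spread for every gene and no GC trend. That run does not show how the fit behaves with the GC trend or the many changes seen here.

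The 10 genes, the gene lists and the GC and length adjustment (15714 genes) were chosen with earlier results of these data known. For each library the adjustment fitted a spline on GC content and another on log exonic length, each with 5 degrees of freedom. Other genes named were, per list, up to 4 with the lowest adjusted p in any comparison and the most abundant one called in none, plus the most similar profile for each of the 10 genes. Jph4 and Jph1 in a figure and Aven, Rabep2, Ttn, Myog, Myh3, Acta1, Cd34, Thy1, Col15a1, Pdgfra and Dcn were added as relatives, overlapping genes or markers. A few genes that this rule names are not reported here, though the list counts include them. Alternatives were DESeq2 1.42.0, limma-voom (limma 3.58.1), RLE scaling, library totals, no filter, a mean of at least 1 CPM, only the 2 groups compared, stricter limits (0.01 for the adjusted p, or 1.5-fold), protein-coding genes only, the GC and length adjustment, paralog shares not divided by length, and leaving out each library.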

Additional observations from a re-analysis of the deposited data

How the results depend on the processing

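With 1 library left out, 4 to 5 of the 10 genes were called higher and 2 lower in knockout vehicle against floxed vehicle. The share of all genes called there was 55.9% to 68.2%. In knockout oxybutynin against floxed vehicle 4 to 5 were higher and 3 lower, with 65.3% to 74.8% of all genes called. In knockout oxybutynin against knockout vehicle 0 to 2 were higher and 0 to 1 lower, with 0% to 26% of all genes called. No filter on low counts gave 1 lower in that comparison, with 3.65% of all genes called. Over all genes that comparison gave 1 higher and 1 lower with edgeR, 173 and 960 with DESeq2, 277 and 822 with no filter, 10 and 148 with library totals, 2 and 5 with RLE scaling, 12 and 51 without knockout vehicle replicate 2, and 1873 and 2315 without knockout vehicle replicate 3; the cause was not tested. With a change of at least 1.5-fold, a stricter rule on size, 3 of the 10 genes were higher and 1 lower in knockout vehicle against floxed vehicle, and likewise 3 higher and 1 lower in knockout oxybutynin against floxed vehicle. The shares of all genes were 41.1% and 51.2%. With the GC and length trend removed 2 were higher in each of these comparisons, and 3 and 4 were lower, with 58.6% and 61.4% of all genes called. The median over the 10 genes in knockout oxybutynin against floxed vehicle then came to -0.11.

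Of the single-gene log2 fold changes, 294 kept direction and side of the threshold under settings that kept all libraries and 253 with 1 library left out, and 14 and 10 turned sign. With library totals, Jsrp1 came to -0.038 and Atp2a1 to -0.023 in knockout oxybutynin against knockout vehicle. Stac3 came to 0.021 with no filter and 0.010 with only the 2 groups compared, in knockout oxybutynin against floxed vehicle. With the GC and length trend removed, Ryr3 came to 0.12 and Atp2a1 to -0.24 in knockout vehicle against floxed vehicle, Ryr3 to 0.077, Jsrp1 to -0.039 and Atp2a1 to -0.36 in knockout oxybutynin against floxed vehicle, and Ryr1 to -0.051, Cacnb1 to -0.029, Stac3 to -0.086, Jsrp1 to -0.22 and Atp2a1 to -0.12 in knockout oxybutynin against knockout vehicle. Leaving out 1 library gave ranges across 0 for Stac3 (-0.072 to 0.17 in knockout oxybutynin against knockout vehicle, -0.16 to 0.050 in knockout vehicle against floxed vehicle and -0.077 to 0.018 in knockout oxybutynin against floxed vehicle), Atp2a2 in knockout vehicle against floxed vehicle (-0.16 to 0.003), and, between the knockout groups, Ryr1 (-0.011 to 0.11), Jsrp1 (-0.12 to 0.16) and Atp2a1 (-0.028 to 0.13). None of these was called as reported except Atp2a1 and Jsrp1 in knockout oxybutynin against floxed vehicle. With 3 libraries a group, the count of Ryr3 and the spread of knockout vehicle limit the precision.

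No paired analysis was possible because the labels number the libraries in 1 series and the groups share no replicate numbers.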
